A study of Mus musculus with 7 samples.

Results

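The genes of the subcortical maternal complex were examined for H3K4me1 in single mouse zygotes. This methylation of histone H3 marks enhancers and the bodies of many active genes. The 8 members are Nlrp5, Ooep, Tle6, Khdc3, Padi6 and Zbed3 of the complex, and the related oocyte genes Nlrp2 and Nlrp14. They were chosen by name and are 8 of the 21887 protein-coding genes annotated on the sex chromosomes and autosomes. All 8 were found by symbol on autosomes. The mark was read by CUT&Tag, in which an antibody guides the Tn5 transposase to marked chromatin, so that sequenced fragments lie there. Both H3K4me1 batches were pooled in 1 deposited table, with each batch from the zygotes of 1 mouse. The series' design states that females were induced with pregnant mare serum gonadotropin at 5 IU. Human chorionic gonadotropin, also 5 IU, followed after 46 to 48 h, and zygotes were taken at 23 after it, with no unit given. Cumulus cells and the zona pellucida were stripped off. The labels call the zygotes untreated and name no strain or age for the H3K4me1 samples. Those of the H3K27me3 samples of the same series, not analysed here, name females of B6D2F1/J at 6 weeks and males of C57BL6/J at 3 to 6 months.

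The subcortical maternal complex is an assembly of proteins stored beneath the membrane of the oocyte. It is built in the growing oocyte, passes to the embryo through the egg, and is needed for the first cleavages. Its core holds NLRP5 (also called MATER), OOEP (FLOPED), TLE6 and KHDC3 (FILIA), and PADI6 is needed for the cytoplasmic lattices of the same cells. The genes are transcribed in the oocyte, and their mRNA in the zygote is a maternal store, which a chromatin measurement does not read.

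The table held 16 zygote libraries, of which 14 reached 5000 fragments, with 7106 to 197312 fragments each and 1404305 in all. A library is named by the number 4 or 5 in its name and its cell number, as in 5-4. No label says which number is which batch, so the 14 libraries form 1 pooled sample without replicates, and no test between samples was made. The level of a gene is its fragments per bp, counted by fragment midpoint in the gene and 2.5 kb of flank at both ends, divided by the mean per bp of the autosomes. That mean was 5.62 fragments per 10 kb. Intervals are exact 95% intervals and cover counting error only. No library without the antibody was used, and how much of a level is background was not tested. As a description of the labelled cells, 6 oocyte marker genes had levels from 1.21 to 2.99 with a median of 2.35, and 4 had intervals above 1. The 12 marker genes of the cumulus and granulosa cells around the egg had levels from 0.257 to 2.63 with a median of 1.09, with 4 intervals above 1, 2 below and no gene at 0. Over all protein-coding genes the median was 1.18, with 28.1% of intervals above 1 and 8.61% below. No cell type was read from these levels, and the part of other cells in the members' levels was not tested.

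Padi6 and Tle6 had levels above the autosomal mean beyond counting error, and Ooep had no fragment at all. The 8 members had a median level of 1.23, beside 1.18 over all protein-coding genes. The intervals of 2 members, Padi6 and Tle6, lay above 1, where 28.1% of all protein-coding genes and 29.5% of autosomal ones had such an interval. Those of 2 members, Nlrp14 and Ooep, lay below 1, where 8.61% of all protein-coding genes and 7.17% of autosomal ones had such an interval. Both shares depend on the length of the window. Among windows of 10 to 20 kb, like that of Tle6, 26.7% lay above 1, among windows over 20 kb, like that of Padi6, 35.8% did, and among windows under 10 kb, 11.4% did. Below 1 lay 3.97% of windows under 10 kb, like that of Ooep, 5.5% of those of 10 to 20 kb, and 11.9% of those over 20 kb, like that of Nlrp14.

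In order, the levels were 2.63 for Padi6, 2.44 for Tle6, 1.66 for Zbed3, 1.25 for Nlrp5, 1.21 for Khdc3, 0.959 for Nlrp2 and 0.714 for Nlrp14, with Ooep last. No 2 genes next to each other in this order differed beyond counting error. The largest of these ratios with fragments at both genes was that of Tle6 to Zbed3, at 1.47 (0.745 to 2.92). Genes farther apart did differ, as Padi6 had 3.68 times the level of Nlrp14 (2.19 to 6.15) and Tle6 had 3.42 times (1.90 to 6.02).

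**Figure D1:**
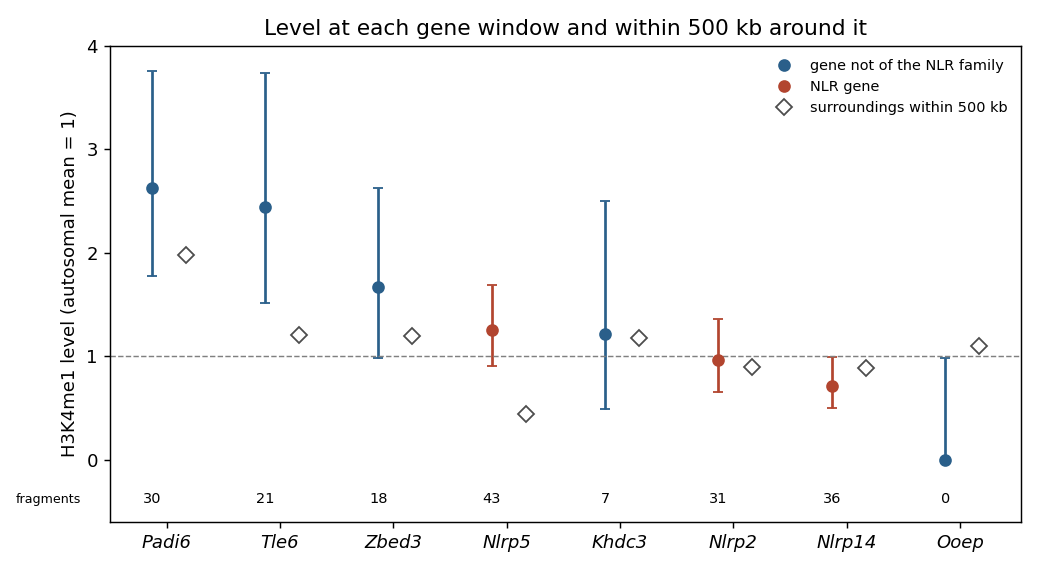
H3K4me1 level (autosomal mean set to 1, y axis) at each gene window, with exact 95% Poisson intervals, and the level within 500 kb around each gene (diamonds), in order of the gene's level. Fragments in the window stand under each point; Padi6 leads with 30 fragments and a level of 2.63, Ooep has 0, and Nlrp5 lies above its surroundings within 500 kb.

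The promoters of the 2 highest members and of Ooep are shown because these 3 genes stand at the ends of the order. They are the 250 bases before the start site, from RefSeq on GRCm38.p6, the assembly of mm10, read 5′ to 3′ on the gene's strand, and lie at chr4:140742644-140742893, chr10:81600901-81601150 and chr9:78378589-78378838, all on the minus strand. Capitals mark CANNTG, the E-box, to which the oocyte factor FIGLA binds with its partner.
Padi6: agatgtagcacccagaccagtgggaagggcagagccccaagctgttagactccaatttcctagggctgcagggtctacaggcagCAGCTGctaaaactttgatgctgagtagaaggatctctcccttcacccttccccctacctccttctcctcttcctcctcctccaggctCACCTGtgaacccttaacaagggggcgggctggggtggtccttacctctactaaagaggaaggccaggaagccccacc
Tle6: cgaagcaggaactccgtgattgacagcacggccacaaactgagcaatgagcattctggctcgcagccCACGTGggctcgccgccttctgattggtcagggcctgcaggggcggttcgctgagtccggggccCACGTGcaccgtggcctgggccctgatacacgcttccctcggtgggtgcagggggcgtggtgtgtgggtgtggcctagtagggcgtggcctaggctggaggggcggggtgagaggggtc
Ooep: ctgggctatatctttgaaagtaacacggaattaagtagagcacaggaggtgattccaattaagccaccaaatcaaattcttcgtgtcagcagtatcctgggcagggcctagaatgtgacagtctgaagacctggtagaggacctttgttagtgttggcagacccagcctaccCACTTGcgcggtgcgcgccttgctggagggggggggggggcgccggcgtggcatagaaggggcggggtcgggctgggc
The Tle6 promoter holds CACGTG at both of its E-boxes and 17 CpG dinucleotides, the Ooep promoter holds 1 E-box and 11 CpG, and that of Padi6 holds 2 E-boxes and 1 CpG, beside a median of 6 CpG over all promoters in the table. CANNTG and TAATTA read the same on both strands. The table had promoters for 7 members, all but Nlrp14. Of these, 6 held CANNTG in the 250 bases before the outermost start, with 5 sites in Khdc3 and 0 in Nlrp2, and 66.2% of all 32851 promoters in the table held at least 1. TAATTA occurred in 1 member promoter, that of Nlrp5, and in 4.84% of all promoters. TAATTG, searched on both strands, occurred in 1, that of Ooep, and in 7.17% of all. TATAAA, searched on both strands, occurred in 0 of the 7 and in 12.4% of all. These matches describe the letters only.

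Padi6 encodes a member of the peptidylarginine deiminases, which in other family members turn arginine into citrulline. Its gene lies on chromosome 4 (140727355 to 140742643). It had 30 fragments from 11 of 14 libraries, from 0 to 4 per library with a median of 2.5, and a level of 2.63 (1.77 to 3.76). No library supplied more than 4 fragments, and libraries 4-2, 5-10 and 5-11 had none. Of its fragments, 27 lay within the gene, where the level was 3.14 (2.07 to 4.57), and 1 lay in the 2.5 kb before the start. Within 1 kb of the start site there was 1 fragment, beside 1.12 expected at a level of 1.

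Levels above 1 were found across the region around Padi6, though not at the same height in every gene. The 5 protein-coding genes within 100 kb all had intervals above 1, beside 35.8% of all windows over 20 kb, to which these 5 belong. Padi1, a deiminase of the epidermis, had 68 fragments and a level of 3.20 (2.49 to 4.06). Padi3, a deiminase of hair follicles, had 2.35 (1.68 to 3.20), and Padi4, a deiminase of granulocytes that acts on histones, had 1.74 (1.20 to 2.44). On the other side, Rcc2 had 1.66 (1.08 to 2.45) and Arhgef10l had 1.36 (1.13 to 1.63). The windows of Padi6 and Padi4 share 1 fragment. The Padi6 level was 0.822 times that of Padi1 (0.516 to 1.28) and 1.94 times that of Padi2 (1.17 to 3.21), which lies at the far end of the cluster with 1.35 (0.963 to 1.85).

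From Padi6 to Padi2, 225 kb held 269 fragments of all 14 libraries, a level of 2.12 (1.88 to 2.39). All 13 libraries above 20000 fragments had a level above 1 over this stretch, from 1.04 to 3.63. Surroundings were taken as all bases within 500 kb of the gene outside its window. They had a level of 1.98 around Padi6, so that the gene stood at 1.33 times its surroundings (0.893 to 1.91). Within 1000 kb, a comparison added after the data were seen, the level was 2.07 and the ratio 1.27 (0.857 to 1.82). Padi6 thus exceeded the autosomal mean beyond counting error, and its own surroundings not.

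Tle6 encodes a protein of the Groucho family of corepressors, and lies on chromosome 10 (81590904 to 81601185). It had 21 fragments from 9 of 14 libraries, from 0 to 5 per library with a median of 1.5, and a level of 2.44 (1.51 to 3.74). The 4 fragments in the 2.5 kb before the annotated gene and the 4 after it compare with 1.41 expected on each side at a level of 1. Within 1 kb of its outermost start site in the promoter table lay 5 fragments, a level of 4.45 (1.44 to 10.4), the highest at a member's outermost start.

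Tle6 stood at 2.03 times its surroundings (1.25 to 3.12). Over all protein-coding genes, 12.8% had an interval above 1 against their surroundings and 7.39% had one below. Among the members 2, Tle6 and Nlrp5, lay above, and 1, Ooep, lay below. Tle6 was denser than its surroundings in 9 of the 13 libraries above 20000 fragments. Without library 5-7, which gave 5 of the 21 fragments, the ratio was 1.71 (0.972 to 2.80) and the interval reached 1. Of the 100 steps of 10 kb around Tle6, 20 held no fragment, and without them, a comparison added after the data were seen, the ratio was 1.61 (0.993 to 2.49). Of the other added comparisons, the nearest 100 kb gave 1.84 (1.10 to 2.91) and 1000 kb gave 1.84 (1.13 to 2.82), both above 1. The empty steps may hold sequence to which reads cannot be assigned, which was not tested.

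Among the 10 protein-coding genes within 100 kb of Tle6, 5 had intervals above 1 and 2 below. Over all protein-coding genes the shares were 28.1% above and 8.61% below. The relative of Tle6, Tle2, a Groucho corepressor, had a level of 1.79 (1.14 to 2.69), but the windows of both genes overlap and share 9 fragments. The highest neighbour was S1pr4, a sphingosine phosphate receptor, with 2.65 (1.32 to 4.74). The lowest was Gm51792 with 0.0978 (0.00248 to 0.545), and Gm10778 had 0.229 (0.0473 to 0.670). Both lie on the high-coordinate side of Tle6, where the last steps of the plot of 10 kb steps are near 0.

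Zbed3 encodes a zinc finger protein that is found with the complex, and lies on chromosome 13 (95323605 to 95337842). It had 18 fragments from 8 of 14 libraries, from 0 to 6 per library with a median of 1.0, and a level of 1.66 (0.987 to 2.63). Library 5-10 supplied 6 of the 18, and without it the level was 1.23 (0.637 to 2.15). The interval lay above 1 with each other flank tried. The level was 1.86 (1.09 to 2.98) with 1 kb at both ends, 1.61 (1.01 to 2.45) with 5 kb and 1.87 (1.05 to 3.09) in the gene alone. It also lay above 1 with libraries named 5 alone, at 1.91 (1.11 to 3.06), and without library 4-2, 4-4, 5-1, 5-2 or 5-7. The interval held 1 when any other single library was left out. Libraries named 4 alone gave 1 fragment and a level of 0.519 (0.0131 to 2.89). Within 1 kb of the 3 listed start sites of Zbed3 there were 0 fragments, and all 18 lay in the gene or after its end. Its 3 neighbours had levels from 0.959 for Aggf1 to 1.35 for Crhbp, with no interval outside 1, and Zbed3 stood at 1.39 times its surroundings (0.821 to 2.22).

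Khdc3 encodes a KH-domain protein, a fold that in other proteins binds RNA, and lies on chromosome 9 (73101381 to 73106631). It had 7 fragments from 5 of 14 libraries, from 0 to 2 per library with a median of 0, and a level of 1.21 (0.488 to 2.503). With 5.76 fragments expected at a level of 1, its interval holds 1 and does not place the gene above or below the mean. Within 1 kb of its start site lay 3 of the 7 fragments. Of its 5 neighbours, Rab27a, a small GTPase of secretory granules, had a level of 1.60 (1.20 to 2.10), and Rsl24d1, a ribosome assembly factor, had 1.80 (1.00 to 2.96). Pigbos1 was the lowest with 0.441 (0.0534 to 1.59).

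Ooep encodes the other KH-domain protein of the core and lies on chromosome 9 (78376903 to 78378588), 5.27 Mb from Khdc3. It is the shortest member, with 3.76 fragments expected at a level of 1, and it had 0 in all 14 libraries. Taken as 3 fragments, the limit that a count of 0 allows is a level of 0.798, and the upper end of its 95% interval is 0.982. Leaving out any 1 of the 13 libraries above 20000 fragments moved this end above 1, to between 1.01 and 1.14, and without library 5-11 it was 0.987. The nearest fragment to its start site lay 4476 bp away.

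Dppa5a, a KH-domain gene of pluripotent cells next to Ooep, also held 0 fragments. Taken as 3 fragments, its limit is a level of 0.868. Its exact interval reaches to 1.07 and holds 1, so Dppa5a was not placed below the autosomal mean. From the Dppa5a window to the end of the Ooep window, there were 16.5 kb, picked out once the counts were known, and they held 0 fragments where 9.29 were expected at a level of 1. Taken as 3 fragments, the limit for this stretch is a level of 0.323, and its exact interval reaches to 0.397. Other genes nearby had fragments. Omt2b, one of a pair of oocyte-expressed genes, had a level of 2.16 (0.932 to 4.26), and Mto1, a mitochondrial tRNA modification enzyme, had 1.55 (1.05 to 2.19). Against surroundings at a level of 1.10, the interval of Ooep reached from 0 to 0.895, and without library 5-6 it reached to 1.07. Of 20 steps of 10 kb within 100 kb of Ooep, 1 was empty. Whether reads can be assigned to the empty stretch was not tested.

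**Figure D2:**
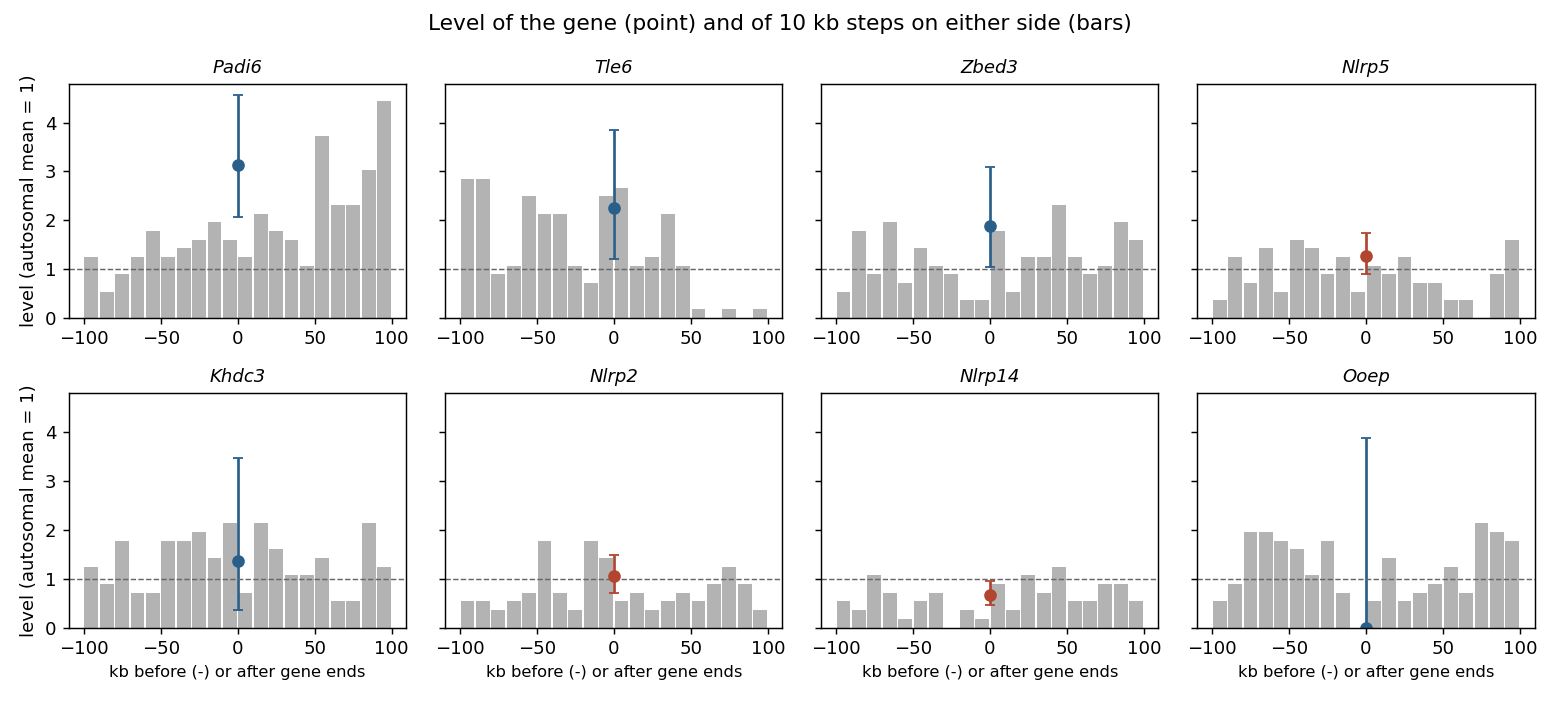
Level (autosomal mean set to 1, y axis) of each gene without flanks (point, exact 95% Poisson interval) and of 10 kb steps on either side (bars), against distance from the gene ends in kb on the x axis, with negative distances on the low-coordinate side. Steps around Padi6 reach 4.45, those around Nlrp14 have a median of 0.534, and the step next to Ooep on the low side is empty.

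The 3 members of the NLR family, proteins with a nucleotide-binding domain and leucine-rich repeats, all lie on chromosome 7, far apart from each other. Most NLR proteins sense microbes or damage, while these are oocyte proteins. Together they had 110 fragments and a level of 0.940 (0.773 to 1.13). The other 5 members together had 76 fragments and a level of 1.88 (1.48 to 2.36), which is 2.00 times as high (1.48 to 2.71). Of the 76 fragments, Padi6 supplied 30 and Tle6 supplied 21, while Zbed3, Khdc3 and Ooep had 18, 7 and 0. The ratio thus does not describe each of the 5 genes. This grouping by family was made with the values known, and a summed level weights long genes more.

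Nlrp5, the core NLR protein of the complex (chromosome 7, 23385889 to 23441923), had 43 fragments from 11 of 14 libraries, from 0 to 7 per library with a median of 3.5. Its level was 1.25 (0.907 to 1.69), which does not differ from 1 beyond counting error. Its surroundings were far lower, at 0.440, so that Nlrp5 stood at 2.85 times its surroundings (2.01 to 3.95). It was denser than its surroundings in 11 of the 13 libraries above 20000 fragments, and leaving out 1 library gave ratios from 2.59 to 2.96.

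The size of the contrast of Nlrp5 depends on which bases it is set against. Of 23 protein-coding genes within 500 kb, 19 are vomeronasal or olfactory receptor genes by name, and 37 of 100 steps of 10 kb held no fragment. Without the empty steps the ratio was 1.80 (1.27 to 2.503). Against the nearest 100 kb, at a level of 0.885, it was 1.42 (0.965 to 2.05), with the interval reaching 1. Against 1000 kb it was 2.30 (1.64 to 3.13). These 3 comparisons were added after the data were seen. How many of the empty steps hold sequence to which reads cannot be assigned was not tested. Its neighbour Nlrp4e, also an oocyte Nlrp gene, had 43 fragments and a level of 1.16 (0.838 to 1.56). The vomeronasal receptor gene Vmn1r167 on the other side had 1 fragment and a level of 0.299 (0.00757 to 1.67). Nlrp5 has 2 listed start sites, with 2 fragments within 1 kb of the outer one and 4 within 1 kb of the inner one.

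Nlrp2 (chromosome 7, 5298547 to 5351035) had 31 fragments from 12 of 14 libraries, from 0 to 6 per library with a median of 1.5. Its level was 0.959 (0.652 to 1.36), near the 0.894 of its surroundings, at a ratio of 1.07 (0.721 to 1.54). Of the 100 steps around it, 18 were empty, and without them, also added after the data were seen, the ratio was 0.867 (0.583 to 1.25). All 31 fragments lay within the gene, and the nearest to its start site was 2936 bp away. Its 2 neighbours within 100 kb, the receptor genes Vmn1r57 and Vmn1r58, had 0.600 (0.0726 to 2.17) and 0.576 (0.119 to 1.68).

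Nlrp14 (chromosome 7, 107113455 to 107198103), an oocyte and testis NLR gene, had 36 fragments from 12 of 14 libraries, from 0 to 6 per library with a median of 2.0. Its level of 0.714 (0.5004 to 0.989) was the lowest among the members with fragments. It stood at 0.802 times its surroundings (0.555 to 1.13) and at 1.20 times the nearest 100 kb (0.779 to 1.84). Nlrp14 was thus below the autosomal mean and not below its neighbourhood beyond counting error. Of 30 protein-coding genes within 500 kb, 25 are receptor genes by name, and Olfr715 and Olfr716 lie inside its annotated span. The highest of its 7 neighbours was Olfr714 with 0.896 (0.185 to 2.62). Olfr715b had 0 fragments, with 0.897 as the level of 3 fragments and an interval that reaches to 1.10. Leaving out library 4-2, 4-4, 4-5, 5-1, 5-3, 5-4, 5-5 or 5-6 moved the upper end of the Nlrp14 interval above 1, to at most 1.07.

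At start sites the level of the members could not be told from that of other genes. Over the outermost starts of 7 members, 11 fragments lay within 1 kb, a level of 1.40 (0.697 to 2.5001), beside 1.06 (1.04 to 1.07) over 17492 protein-coding genes with a listed start. No fragment lay there for 3 of the 7 members, Ooep, Zbed3 and Nlrp2, and for 37.9% of all starts.

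Fewer fragments at the members were short than among all fragments. Of 186 fragments, 3.76% (1.53% to 7.60%) were under 150 bp, beside 8.37% (8.32% to 8.41%) of all fragments. Over 300 bp lay 62.9% (55.5% to 69.9%) at the members and 54.2% (54.1% to 54.2%) of all. The median length was 348 bp at the members and 322 bp over all fragments. Windows of other genes were not compared, and the mix of libraries was not matched. At most 2 fragments of any single library covered a base of a member window. None of these windows touched a 10 kb bin above 10 times the mean.

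Single zygotes gave few fragments per gene. Of 112 pairs of member and library, 44 had 0 fragments, 47 had 1 to 3 and 21 had more, with a highest count of 7 for Nlrp5 in library 5-10. Summed over the members, the level was above 1 in 10 of the 13 libraries above 20000 fragments. It ranged from 0.267 (0.0324 to 0.966) in library 4-2, with 2 fragments, to 1.46 (0.928 to 2.20) in library 5-10, with 23. No library had an interval above 1.

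The 3 libraries below 1 were those named 4. Over libraries named 4 the summed level was 0.713 (0.436 to 1.10) from 20 fragments, and over those named 5 it was 1.28 (1.10 to 1.49) from 166 fragments. The summed level with libraries named 4 was 0.555 times that with libraries named 5 (0.331 to 0.886 by counting error alone). That interval leaves out the spread between libraries, with single libraries named 4 at 0.267, 0.880 and 0.872. Whether the sets differ beyond this spread was not tested. This ratio was added after the data were seen. Without library 4-2 it was 0.682 (0.394 to 1.11) and the interval held 1, and leaving out any other single library gave upper ends of at most 0.908. Over the windows of all protein-coding genes the level was 1.15 in both sets. For single members the ratio had an interval that held 1 at all 7 members with fragments. Padi6 had 2.46 (0.799 to 5.74) with libraries named 4, against 2.67 (1.73 to 3.94) with libraries named 5, and Tle6 had 2.61 (0.712 to 6.69) with those named 4 and 2.41 (1.40 to 3.86) with those named 5. For Nlrp14 the libraries named 4 gave 0.223 (0.0270 to 0.804), against 0.821 (0.569 to 1.15) for the libraries named 5. By value, Padi6 and Tle6 were the 2 highest members in both sets. With libraries named 4 this order rests on 5 and 4 fragments, with intervals that hold 1 and overlap those of the other members.

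**Figure D3:**
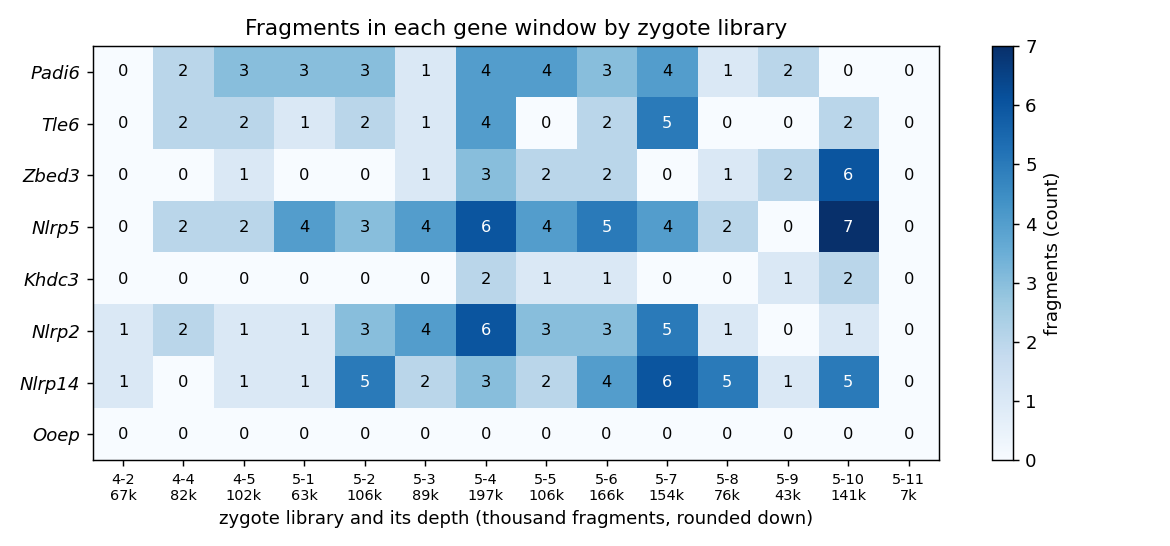
Fragments in each gene window (rows, in order of pooled level) for each of the 14 zygote libraries (columns, with depth under each name); colour shows the count. Counts run from 0 to 7, every Ooep cell is 0, and library 5-11, the shallowest, has 0 for all members.

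Of the families around the members, the oocyte Nlrp genes had levels like those of the 3 NLR members, and the other NLR genes had a higher median, a difference that was not tested. The 10 genes of the Nlrp4 and Nlrp9 groups, expressed in oocytes, had a median of 0.952, with 0 intervals above 1 and 1 below. The 1 below was Nlrp9b, with 0.604 (0.395 to 0.885). Over all protein-coding genes 28.1% lay above and 8.61% below, and among windows over 20 kb 35.8% and 11.9% did. Levels of the 10 genes ranged from 0.595 for Nlrp4d, listed as a pseudogene, to 1.38 for Nlrp4f. Together the 3 NLR members had 1.00 times the level of the 9 protein-coding ones (0.791 to 1.26). Genes of this family are near copies of each other, so that reads could be shared between them or left out.

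The 10 other NLR genes, most of them in immunity, had a median of 1.47, with 4 intervals above 1 and 0 below. Over all protein-coding genes the shares were 28.1% above and 8.61% below. Nlrp6, of the gut epithelium, had 2.28 (1.33 to 3.64), Nlrp12 had 1.87 (1.32 to 2.57), and Nlrc5, an activator of major histocompatibility class I genes, had 1.62 (1.30 to 1.99). Nlrp1a had 1.48 (1.10 to 1.96), and the inflammasome sensor Nlrp3 was lowest with 0.820 (0.448 to 1.38).

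In the other families, 3 of 4 further Padi genes had intervals above 1, as given above. Of 5 further Tle genes 2 did, Tle2, which shares 9 of its 23 fragments with Tle6, and Tle3, at 2.02 (1.53 to 2.61). The lowest Tle gene was Tle1 with 1.09 (0.832 to 1.41). Over all protein-coding genes 28.1% lay above 1 and 8.61% below, and among windows over 20 kb 35.8% lay above. The 4 KH-domain embryo genes had none outside 1, from 0 fragments at Dppa5a to 0.909 (0.248 to 2.33) at Khdc1b. In the Zbed family, Zbed4 had 1.74 (1.22 to 2.40) and Zbed6, with 1 fragment, had 0.178 (0.00450 to 0.991).

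Of 10 partners and regulators of the complex, 5 had intervals above 1 and 0 below, with a median of 1.66. Uhrf1, the maintenance methylation factor that is bound in cytoplasmic lattices, was highest with 2.41 (1.67 to 3.36), and Dnmt1, the maintenance methyltransferase, had 2.13 (1.66 to 2.69). Among the transcription factors of the oocyte, Sohlh1 had 2.31 (1.19 to 4.03), Figla had 2.25 (1.16 to 3.92) and Lhx8 had 1.64 (1.08 to 2.39). The lowest was the actin-severing factor Cfl1, with 0.622 (0.128 to 1.82). Over all 46 genes of the 7 lists, 15 had intervals above 1, which is 32.6%, near the 28.1% of all protein-coding genes.

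**Figure D4:**
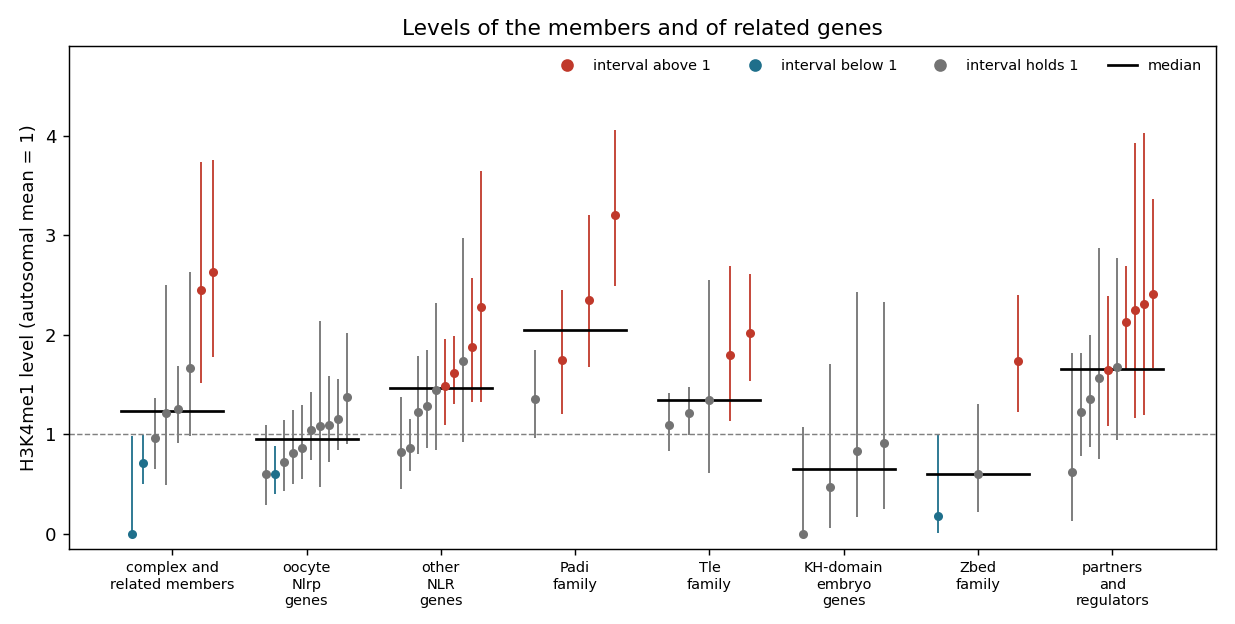
H3K4me1 level (autosomal mean set to 1, y axis) of the 8 members and of the genes of 7 related lists, each with its exact 95% Poisson interval; colour shows whether the interval lies above, below or across 1, and black bars are medians. Among the 7 lists the Padi family has the highest median, 2.05, and the Zbed family the lowest, 0.600.

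Among all protein-coding genes ranked by level, Padi6 lay at percentile 96.4, Tle6 at 94.6, Zbed3 at 76.1, Nlrp5 at 54.8, Khdc3 at 52.4, Nlrp2 at 35.4 and Nlrp14 at 21.4. Levels of short windows scatter more, so that a percentile of a short gene says less than that of a long one.

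**Figure D5:**
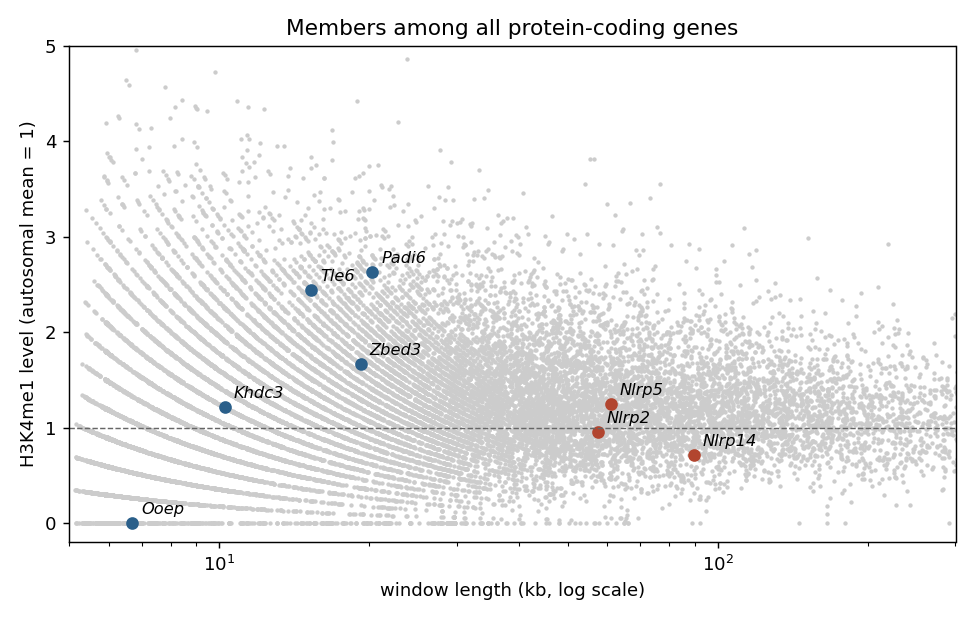
Level (autosomal mean set to 1, y axis) against window length in kb (log x axis) for protein-coding genes (grey) and the 8 members (blue, or red for NLR genes); 582 of 21887 genes lie outside the axes. The scatter of levels narrows with length, and Padi6 and Tle6 lie in the upper part of genes of their length. The 3 NLR members lie among long windows, with levels from 0.714 to 1.25.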

How the data were processed

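H3K4me1 CUT&Tag fragments of single zygotes were used, and the H3K27me3 and transcriptome samples were not analysed here. The table deposited by the authors lists 1 fragment per line with a count of 1, so counts per region are counts of lines. It was made on mm10, per the submitters' processing notes. Not given in the sources used here: aligner, duplicate removal, filters and any Tn5 shift. Of the 1424363 lines, 5 were repeats. Pooled were libraries that reached 5000 fragments on the autosomes and sex chromosomes, and 2 fell short. Depth had a median of 96240 fragments and limits short genes most.

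Fragments were placed by midpoint in the gene with 2.5 kb on each side, with gene positions from RefSeq for GRCm38.p6. Chromosome lengths ran from the first to the last fragment. Levels have exact Poisson intervals, shares have Clopper-Pearson intervals, and ratios of levels have the exact interval conditional on the sum of both counts. A count of 0 is given with the level of 3 fragments as its limit. Amplified reads are not independent molecules, so intervals cover counting error only. A gene was called above or below 1 where its interval excluded 1. Counting and calls were tested on simulated data, with Python 3.11.15, numpy 2.4.6, pandas 2.3.3 and scipy 1.17.1. The simulated counts were independent draws, so they did not test amplification or spread between libraries.

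Named genes are all 8 members, related genes with an interval outside 1, and the highest and lowest of each list. Neighbours within 100 kb of a member are named by the same rule, up to 4 beside those of a related list. Near Tle6, Ncln, Gna11 and Gna15 also had intervals above 1 and were not described. No likeness across libraries was sought, since counts per library are too few. Members and lists were chosen with earlier results of these data known. Alternatives changed the flank, the libraries, the placing of fragments and the base of the level.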

Additional observations from a re-analysis of the deposited data

How the results depend on the processing

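The 2 intervals above 1, Padi6 and Tle6, kept their side under all alternatives of flank, depth, placing and leaving out 1 library, and their number stayed between 2 and 3 when 1 library was left out. It was 0 in libraries named 4 alone. The number below 1 was less firm: it ranged from 0 to 2 when 1 library was left out, was 1 with 1 kb on each side, with the gene body alone, in libraries named 4 alone and with the mean within 500 kb as base, and was 0 in libraries named 5 alone. The median of the members lay between 1.10 and 1.32 when 1 library was left out, and was 0.587 in libraries named 4 alone, which hold few fragments. Fewer fragments widen intervals by construction. The value of Nlrp14 was above 1 only against the nearest 100 kb, at 1.20 (0.779 to 1.84), an alternative added after the data were seen. Its interval held 1 there, in libraries named 5 alone (0.569 to 1.15) and against the mean within 500 kb (0.555 to 1.13). It also held 1 when some single libraries were left out. Padi6 was 1.33 and Nlrp5 2.85 against the mean within 500 kb. Of 208 values of single members, not counting bases added after the data were seen, 202 stayed within the interval of the pooled level. Of 24 values with those added bases, 18 did and 5 of Nlrp5 and Padi6 lay outside it. The remaining 1, of Nlrp14, went from below 1 to above 1 with an interval that held 1. No paired analysis was possible because the 2 batches are pooled in 1 table and the labels tie no library to a batch. Depth limits the short genes Ooep and Khdc3 most.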
